A study of Mus musculus with 2 samples.

Results

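RNA levels were examined for 10 genes of the oxygen-sensing pathway in the embryonic mouse heart: the hypoxia-inducible factor alpha genes Hif1a, Epas1 and Hif3a, their partners Arnt and Arnt2, the prolyl hydroxylases Egln1, Egln2 and Egln3, the asparagine hydroxylase Hif1an, and Vhl. They were chosen by symbol out of 34236 gene symbols, of which 22240 are protein-coding, and all 10 were found, each with 1 row in each table. RNA sequencing was done on heart tissue at embryonic day 12.5, with 2 libraries called replicate 1 and replicate 2, from embryos of a mixed C57BL/6 x 129S6 background. The labels name no treatment and no engineered allele, and they do not say whether the hearts came from separate embryos, litters or pools, so the spread between the libraries may be technical. Both libraries form 1 group. There is no condition to compare, and an exact sign-flip test over 2 libraries cannot go below a two-sided p of 0.5, so levels and their spread are given without p-values.

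Cells with ample oxygen destroy HIF alpha proteins as fast as they make them. Prolyl hydroxylases of the EGLN family use oxygen, iron and 2-oxoglutarate to modify prolines in HIF alpha, and the VHL ubiquitin ligase recognises the modified protein and marks it for degradation, while the asparagine hydroxylase encoded by Hif1an blocks the binding of coactivators. When oxygen is scarce the hydroxylases slow, HIF alpha accumulates, joins ARNT in the nucleus and activates genes of glycolysis, vessel growth and red cell production. The embryonic heart forms in low oxygen before its coronary vessels are complete, and mouse embryos lacking Hif1a, Arnt, Vhl or Egln1 die before birth. Because this control acts largely on protein, the RNA levels below do not measure the activity of the pathway.

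Values are FPKM, which sets the fragments of a gene against its transcript length and the size of the library, as mean ± SD over the 2 libraries (n = 2). The FPKM of all genes summed to 388230 and 382561 in replicates 1 and 2. How many fragments were sequenced is unknown. Among 2637 genes at very low level, the most common ratio of replicate 2 to replicate 1 was about 1.33. If such values rest on single fragments, replicate 2 was the shallower library, which was not tested. The heart label was checked against marker genes. All 7 cardiomyocyte markers were detected, which here means 1 FPKM or more in both libraries, from Ryr2 at 7.66 to Actc1 at 4314 FPKM. Markers of other cells were detected too, with 6 of 6 for endothelium (Kdr at 12.1 to Cdh5 at 37.3 FPKM), 5 of 5 for red cells (Klf1 at 1.84 to Hbb-y at 15962) and 4 of 4 for epicardium (Wt1 at 13.4 to Upk3b at 63.1). For mesenchyme and smooth muscle 5 of 6 were detected (Myh11 at 0.496 to Acta2 at 393 FPKM) and for macrophages 3 of 3 (Cx3cr1 at 2.12 to Lyz2 at 21.7). Of the liver markers 0 of 3 reached the limit in both libraries (Ttr at 0.365 to Afp at 1.17 FPKM). All 3 were higher in replicate 2 (summed FPKM of 1.66 and 3.12 in replicates 1 and 2), for which no reason was tested. Which of these cells held the RNA of the oxygen-sensing genes was not tested, and in whole tissue fewer cells of a type and less RNA per cell cannot be told apart.

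All 10 oxygen-sensing genes were detected in both libraries, against 36.2% of all symbols and 52.4% of protein-coding symbols. Their median was 18.4 FPKM, beside 10.9 FPKM for the protein-coding genes detected in both libraries and 0.118 FPKM for all symbols, and 7 of the 10 lay above the median of the detected protein-coding genes. The levels ran over a wide range, from Egln3 at 4.73 FPKM to Hif1a at 82.5 FPKM.

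**Figure D1:**
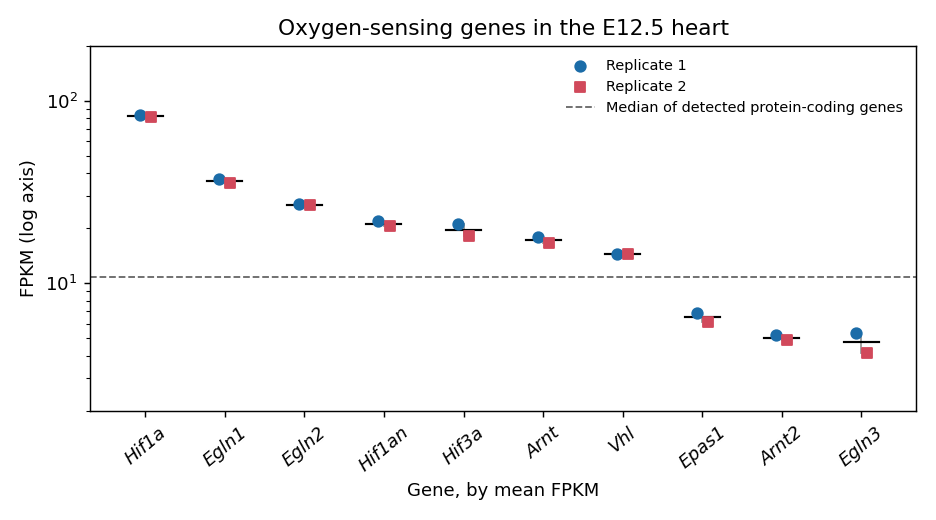
FPKM (log axis) of the 10 oxygen-sensing genes in replicate 1 (circles) and replicate 2 (squares), ordered by mean; black bars are means of the 2 libraries and the dashed line is the median of protein-coding genes detected in both (10.9 FPKM). Hif1a lies above all others, and Epas1, Arnt2 and Egln3 lie below the dashed line in both libraries.

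Among the alpha subunits, Hif1a, the broadly expressed hypoxia-inducible factor, had 83.6 FPKM in replicate 1 and 81.4 FPKM in replicate 2 (82.5 ± 1.60 FPKM; chromosome 12, 75002362 to 75048517, plus strand, mm9). It was the highest of the 10 genes in both libraries and lay above 94.6% of the detected protein-coding genes. Hif3a, whose isoforms include inhibitors of the other alpha subunits, had 21.1 and 18.2 FPKM (19.6 ± 2.01 FPKM; chromosome 7, 17616856 to 17647776, minus strand). Epas1, which encodes HIF-2 alpha and is best known from endothelium and from control of erythropoietin, had 6.87 and 6.11 FPKM (6.49 ± 0.532 FPKM; chromosome 17, 87153247 to 87232750, plus strand). The order Hif1a, Hif3a, Epas1 was the same in both libraries and no ranges overlapped. By FPKM, Hif1a was 4.22 ± 0.350 times Hif3a and 12.7 ± 0.798 times Epas1, and Hif3a was 3.02 ± 0.0618 times Epas1. Of the summed FPKM of the alpha genes, Hif1a held 74.97% in replicate 1 and 77.0% in replicate 2, Hif3a 18.9% and 17.2%, and Epas1 6.16% and 5.79%. The gene-level value of Hif3a does not separate its inhibitory isoforms from the full-length form, for which isoform values were not used here. Epas1 stood below each of the 6 endothelial markers, of which Kdr was the lowest at 12.1 FPKM.

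The beta subunits dimerise with the alpha subunits and with other factors of the same class. Arnt, the general partner, had 17.9 FPKM in replicate 1 and 16.6 FPKM in replicate 2 (17.3 ± 0.984 FPKM; chromosome 3, 95238310 to 95301162, plus strand). Arnt2, best known from neural tissue, had 5.19 and 4.86 FPKM (5.02 ± 0.233 FPKM; chromosome 7, 91394791 to 91558469, minus strand). Arnt was thus the main beta gene in both libraries, at 3.43 ± 0.0369 times the FPKM of Arnt2 and 77.4% ± 0.188 of their sum. The summed alpha level (109 ± 4.14 FPKM) was 4.88 ± 0.0807 times the summed beta level (22.3 ± 1.22 FPKM), and Hif1a alone was 4.79 ± 0.180 times Arnt.

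Of the prolyl hydroxylases, Egln1, which encodes PHD2, the main oxygen sensor for HIF-1 alpha in most cells, had 37.2 FPKM in replicate 1 and 35.5 FPKM in replicate 2 (36.3 ± 1.19 FPKM; chromosome 8, 127432496 to 127473154, minus strand). Egln2, which encodes PHD1, had 27.2 and 26.8 FPKM (27.0 ± 0.288 FPKM; chromosome 7, 27943677 to 27951821, minus strand). Egln3, which encodes PHD3 and is itself a well-known HIF target, had 5.31 and 4.15 FPKM (4.73 ± 0.819 FPKM; chromosome 12, 55279968 to 55304847, minus strand). Egln1 and Egln2 lay close together and Egln3 far below, without overlap between any of the 3 ranges. The ratio of Egln1 to Egln2 was 1.35 ± 0.0295, and that of Egln1 to Egln3 was 7.0 in replicate 1 and 8.55 in replicate 2. Egln1 held 53.4% ± 0.0570 of the summed FPKM of the family, Egln2 39.7% ± 0.913 and Egln3 6.94% ± 0.970. Their sum of 68.0 ± 2.29 FPKM was 0.627 ± 0.00275 times that of the alpha genes, with nearly the same ratio in replicate 1 (0.625) and replicate 2 (0.628).

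**Figure D2:**
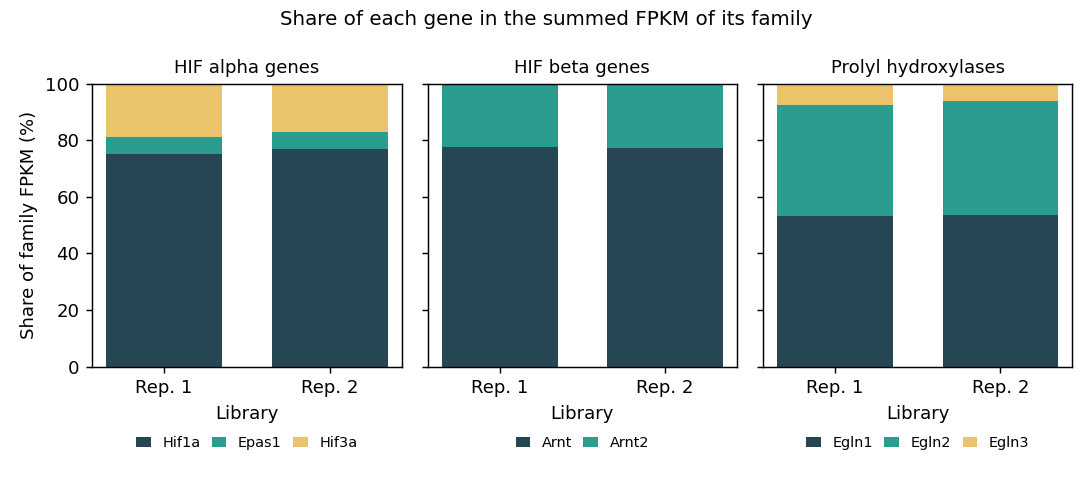
Percent of the summed FPKM of each family held by each gene, in each of the 2 libraries, for the HIF alpha genes, the HIF beta genes and the prolyl hydroxylases. Hif1a holds 74.97% and 77.0% of the alpha sum, Arnt 77.6% and 77.3% of the beta sum, and Egln1 with Egln2 nearly all of the hydroxylase sum.

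Hif1an, also called FIH, which hydroxylates an asparagine in the transactivation domain of HIF alpha, had 21.9 FPKM in replicate 1 and 20.6 FPKM in replicate 2 (21.2 ± 0.912 FPKM; chromosome 19, 44637340 to 44650764, plus strand). The summed prolyl hydroxylases were 3.21 ± 0.0298 times Hif1an, and Egln1 alone was 1.71 ± 0.0177 times Hif1an. Vhl, the substrate-recognition subunit of the ligase, had 14.4 and 14.5 FPKM (14.4 ± 0.0611 FPKM; chromosome 6, 113573953 to 113581627, plus strand). It differed least between the libraries of the 10 genes. Hif1a exceeded Vhl by a factor of 5.71 ± 0.135.

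The order of the 10 levels was Hif1a, Egln1, Egln2, Hif1an, Hif3a, Arnt, Vhl, Epas1, Arnt2 and Egln3. Neighbours were said to differ beyond the spread where their ranges did not overlap and their mean log2 ratio, taken after adding 1 FPKM, exceeded 0.32, the 95th percentile of the absolute differences of single genes between the libraries. By that measure 4 of 9 neighbouring pairs differed, namely Hif1a over Egln1 (log2 ratio 1.16 ± 0.02), Egln1 over Egln2 (0.42 ± 0.03), Egln2 over Hif1an (0.33 ± 0.04) and Vhl over Epas1 (1.05 ± 0.11). Hif1an and Hif3a had overlapping ranges, as did Arnt2 and Egln3, which changed places between the libraries. The steps from Hif3a to Arnt (0.17 ± 0.06), Arnt to Vhl (0.24 ± 0.08) and Epas1 to Arnt2 (0.31 ± 0.05) were kept in both libraries but lay within the limit. Over all 45 pairs of the 10 genes, 39 differed by the same measure, among them Hif1an over Vhl (0.52 ± 0.06), Hif3a over Vhl (0.41 ± 0.15) and Epas1 over Egln3 (0.39 ± 0.10). The 6 pairs that did not were the 5 neighbouring pairs above and Hif1an with Arnt (0.28 ± 0.02). The limit covers only the spread between libraries, not errors that both share, and the step from Egln2 to Hif1an sits close to it.

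Between the libraries, 0 of the 10 genes differed 2-fold or more on the log2(FPKM + 1) scale, against 0.736% of the 12637 symbols with a mean of 1 FPKM or more. Likewise 0 of the 10 passed the 95th percentile, which by its definition 5% of symbols do. Egln3 differed most, with a log2 difference of -0.29 (replicate 2 minus replicate 1), and 93.7% of the 2623 genes within 1.5-fold of its level differed less. Hif3a followed at -0.20, where 95.3% of 2833 genes of like level differed less, and Epas1 was at -0.15. The values of Hif1a (-0.04) and Egln2 (-0.02) were small, and Vhl (0.01) alone was higher in replicate 2. In all, 9 of 10 genes were lower in replicate 2, as were 66.6% of the 12637 symbols. The median difference was -0.08 for the 10 genes and -0.04 for those symbols. With 2 libraries a correlation of profiles can take only the values 1 and -1, so no genes of like pattern were sought.

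**Figure D3:**
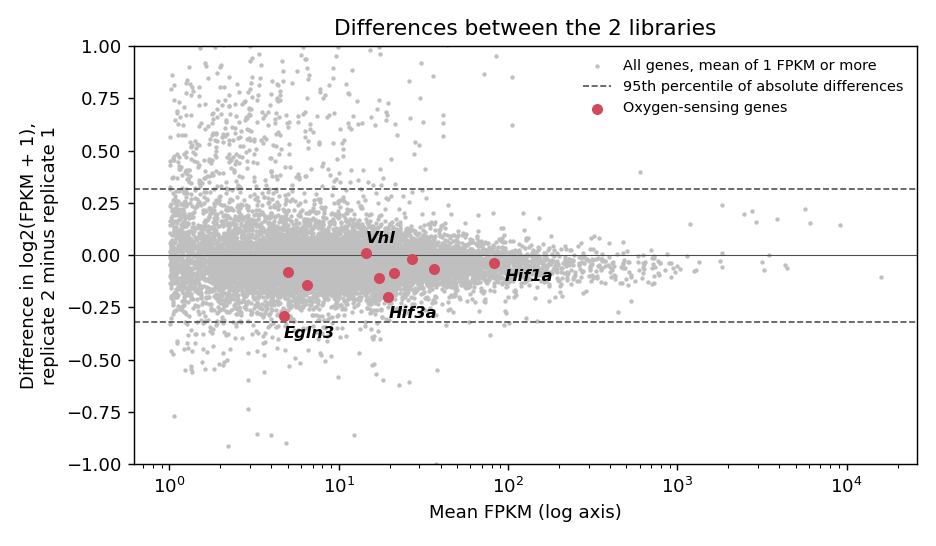
Difference in log2(FPKM + 1), replicate 2 minus replicate 1, against mean FPKM (log axis) for the 12637 genes at a mean of at least 1 FPKM (grey) and for the 10 oxygen-sensing genes (red); dashed lines mark the 95th percentile of absolute differences (0.32), and 93 genes lie outside the plotted range. All red points lie between the dashed lines, with Egln3 nearest to the lower one.

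Several genes of this pathway are known to be regulated by HIF itself, which binds the core letters ACGTG or GCGTG. RefSeq promoter windows on GRCm38.p6 ran from 250 bases before to 50 bases after the start site. They were available for 9 of the 10 genes, all but Epas1, with a pair of windows for Egln2. Both cores were searched on both strands, and a palindromic CACGTG counts as a match on each strand. ACGTG was found in 4 of the 10 windows and GCGTG in 5, and those of Arnt2, Vhl and Hif1an held neither. Among all 32851 windows, 19.6% held ACGTG and 32.4% held GCGTG. Among the 10915 windows of genes detected in both libraries, the shares were 25.5% and 51.3%. The stretches of Hif1a and of the 3 hydroxylase genes that span the matches are printed below, because these are the windows that hold ACGTG. Each runs 5′ to 3′ on the strand of its gene, with the matches and their reverse complements in capitals.
Hif1a: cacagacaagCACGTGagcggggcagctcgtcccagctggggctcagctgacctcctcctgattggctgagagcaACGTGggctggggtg
Egln1: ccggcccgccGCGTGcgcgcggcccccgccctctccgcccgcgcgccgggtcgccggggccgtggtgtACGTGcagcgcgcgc
Egln2: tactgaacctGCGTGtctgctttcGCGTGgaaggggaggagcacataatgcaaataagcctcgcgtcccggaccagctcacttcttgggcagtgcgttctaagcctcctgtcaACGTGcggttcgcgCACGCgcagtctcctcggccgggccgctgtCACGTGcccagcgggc
Egln3: tgcatctcagACGTGagatccaggt

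The Hif1a stretch is chr12:73907722-73907811 (plus strand), Egln1 is chr8:124949308-124949390 (minus), Egln2 is chr7:27166791-27166963 (minus) and Egln3 is chr12:54204089-54204113 (minus), all on GRCm38.p6. The Hif1a window held 3 matches in 2 capital blocks, and 16.2% of the windows of detected genes held 3 or more. The first Egln2 window held 6 matches in 5 capital blocks, and 1.28% of the windows of detected genes held 6 or more. That of Egln1 held 2 matches, and 33.9% of those windows held at least 2. Its GC content was 86%, beside a median of 61.3% for windows of detected genes. That of Egln3 held 1 match, which starts 229 bases before the start site, and 62.6% of the windows of detected genes held at least 1. These windows were singled out after the matches were seen. The other Egln2 window held 1 GCGTG and 0 ACGTG. A match is not a binding site, and no binding was measured here.

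The genes that work with the 10 were described from lists, by counts and levels. For each list count below, the shares detected over all genes were 36.2% of all symbols and 52.4% of protein-coding symbols. Partners of VHL in its ligase were all detected (6 of 6, median 67.1 FPKM). Tceb2, which encodes elongin B, was at 229 ± 5.55, Tceb1, which encodes elongin C, at 68.6 ± 1.72, the RING subunit gene Rbx1 at 65.6 ± 0.494 and the scaffold gene Cul2 at 23.6 ± 1.14 FPKM. Vhl was lower than each of them in both libraries. Genes of proteins that act on the stability of HIF or of the hydroxylases were detected in 13 of 13 cases (median 17.5 FPKM), from Siah2, a ubiquitin ligase for prolyl hydroxylases, at 5.78 ± 0.392 to the chaperone gene Hsp90ab1 at 847 ± 29.3 FPKM. Siah2 was thus the only listed stability gene below Epas1 in both libraries. All 7 coactivator and competitor genes were detected (median 9.50 FPKM). The coactivator genes Ep300 and Crebbp were at 7.43 ± 0.814 and 3.75 ± 0.312 FPKM, and Cited2, which competes with HIF alpha for these coactivators, was highest of the list at 23.5 ± 0.969 FPKM.

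Of 11 other bHLH-PAS genes, the transcription factor class of Hif1a and Arnt, 3 were detected, and the list median was 0.325 FPKM. Over all symbols 36.2% were detected, with a median of 0.118 FPKM, and over protein-coding symbols 52.4% were detected. The count is therefore not read as a trait of the class. The 3 detected genes of this list were Clock at 5.42 ± 0.362 and Arntl at 2.48 ± 0.0436 FPKM, partners in the circadian clock, and Ahr, the dioxin receptor, at 1.24 ± 0.170 FPKM. All 3 HIF alpha genes thus exceeded each of these 11 genes in both libraries. Sim1 was the lowest, at 0.00260 ± 0.000586 FPKM.

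Other hydroxylases that use 2-oxoglutarate were all detected (11 of 11, median 24.1 FPKM). P4htm, a transmembrane enzyme that can also act on HIF alpha, was the lowest at 5.36 ± 0.460 FPKM, and collagen-modifying P4ha1 was at 24.3 ± 0.566 and Plod2 at 24.7 ± 2.06 FPKM. P4htm overlapped Egln3 in range and was below Egln1 and Egln2 in both libraries. The listed hydroxylase genes P4ha1, P4ha2, Plod1 and Plod2 are also among the HIF targets counted below. Genes of enzymes that make or use 2-oxoglutarate, succinate or fumarate, metabolites that feed or inhibit the EGLN enzymes, were all detected (9 of 9, median 146 FPKM). Idh2 was at 466 ± 13.6, Sdhb at 167 ± 5.18 and Fh1 at 79.7 ± 2.28 FPKM, each above Egln1.

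Of 48 genes listed as HIF targets, 45 were detected, with a median of 16.4 FPKM. The shares detected were 36.2% over all symbols and 52.4% over protein-coding symbols. The 8 highest began with Aldoa (aldolase) at 780 ± 36.1, Ldha (lactate dehydrogenase) at 732 ± 48.7 and Pkm2 (pyruvate kinase) at 531 ± 25.4 FPKM. Next came the cytokine gene Mif at 475 ± 14.3 and Tpi1 of glycolysis at 429 ± 21.0 FPKM. Last of the 8 were Fam162a, which encodes a mitochondrial protein, at 124 ± 7.90, the glucose transporter gene Slc2a1 at 117 ± 3.01 and the enolase gene Eno1 at 110 ± 0.719 FPKM. All of these 8 except Aldoa share a stretch of at least 75 bases at 98% identity or more with another annotated gene, so their levels are uncertain. The same holds for Tceb2, Rbx1, Crebbp, Ahr, Plod2 and Epo among the list genes named here. Targets outside the 8 highest share such stretches too, with up to 81 other genes for a single target. The choice of the 8 and the median of the target list are therefore uncertain as well. The 3 targets under the limit were the carbonic anhydrase gene Car12 at 0.555 ± 0.000796 FPKM, Nos2 at 0.108 ± 0.00640 FPKM and Epo, the erythropoietin gene, which was listed at 0 in both libraries. An entry of 0 can be a failed estimate. Many of these targets also have other regulators, so their levels do not measure HIF activity.

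**Figure D4:**
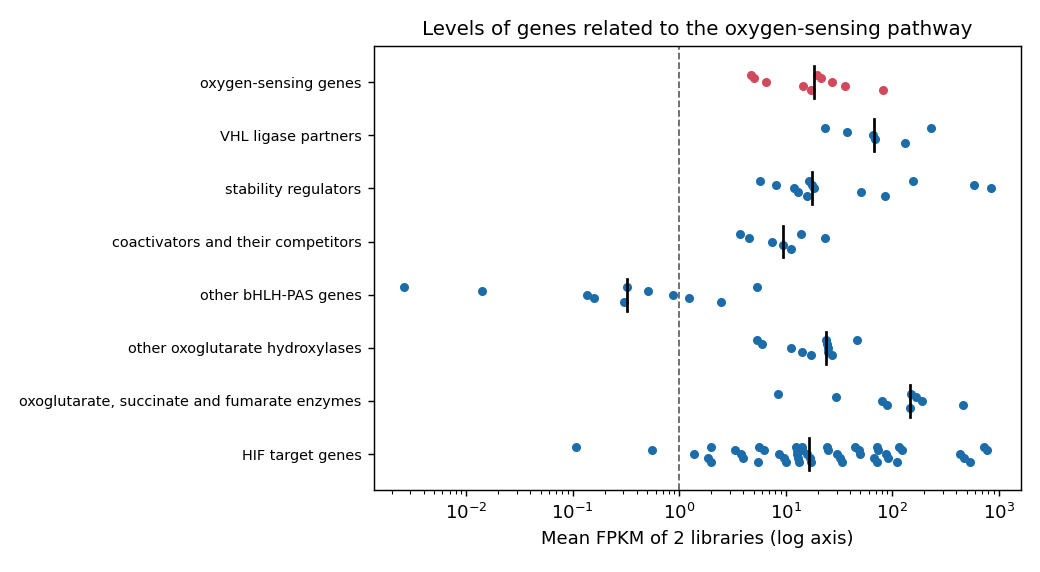
Mean FPKM of the 2 libraries (log axis) for each of the 10 oxygen-sensing genes (red) and each gene of 7 related lists (blue); black bars are list medians and the dashed line is 1 FPKM. The other bHLH-PAS genes lie mostly left of the dashed line, and Epo, listed at 0, is not drawn. P4ha1, P4ha2, Plod1 and Plod2 belong to both the hydroxylase and the target list and are drawn in each.

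Reads shared with other genes were looked for because the counting rules for such reads are not given. Hif1a overlaps the lincRNA Gm15283 on the opposite strand over 21050 bases in the deposited coordinates. Without a stated strand setting their reads cannot be told apart where exons overlap, and Gm15283 was listed at 0.213 FPKM in replicate 1 and 0.127 FPKM in replicate 2. Egln2 overlaps Cyp2t4 by 11 bases on the opposite strand, and Cyp2t4 was at 0.0116 and 0.0609 FPKM. Arnt2 holds a U6 small nuclear RNA row of 107 bases on its own strand. At 98% identity over at least 75 bases, Hif1a matched Gm15283 and Gm49321, and Arnt2 matched Gm30873 over 221 bases. No such match was found for the other 8 genes in the GENCODE M21 transcripts.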

How the data were processed

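RNA was sequenced from 2 heart samples of 1 group, extracted with Trizol and prepared with the Illumina TruSeq RNA v2 kit, per the labels' protocols. The authors deposited 1 table per sample with FPKM per gene. GSNAP, Cufflinks and Cuffnorm and the builds mm9 and hg19 are named, with no versions, per the submitters' processing notes. Which annotation and strand setting were used is not stated in these sources. Gene coordinates are taken as mm9, since the last gene of chromosome 1 ends at 197054592 in the files, past the last GRCm38.p6 gene end of 195291439. Counts were not used here, so depth is unknown and no interval for counting error is given.

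Rows of the same symbol were summed (37620 rows, 34236 symbols). Detection meant 1 FPKM or more in both libraries, and log2 values were taken after adding 1 FPKM, which understates differences of low genes. The genes and lists were chosen with earlier results of these data known. All 10 genes are named, and any gene of a list of up to 13 may be named. Of the HIF targets, the 8 highest and those under 1 FPKM are named, and of the markers the highest and lowest. The result of 1 marker list is not reported here. Promoter windows came from RefSeq on GRCm38.p6, and shared stretches were sought with BLAST 2.17.0 in GENCODE M21 transcripts. Alternatives were another pseudocount, detection limit and filter, each library alone, only the top row of a symbol, and libraries rescaled. The steps were tested on simulated data. Tools were NumPy 2.4.6, pandas 2.3.3 and Matplotlib 3.10.9 under Python 3.11.15.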

Additional observations from a re-analysis of the deposited data

How the results depend on the processing

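The levels of the 10 genes and their family shares give no test of stability under most alternatives. With 2 libraries, a value from 1 of them always lies within 1 SD of the mean, each of the 10 genes has a single row, and shares within a library cannot change on rescaling. The 48 recomputed counts are a weak test too, since a detection count from 1 library can only stay or rise. Of these counts, 47 stayed within 1.5 times, with changes from 4 to 6 and from 3 to 2 exactly at that bound. The exception was the number of oxygen-sensing genes past the 95th percentile of library differences, which was 0 and became 1 (Egln3) with no filter on low values, where the limit fell to 0.24. All 10 genes were also detected at limits of 0.5 and 2 FPKM. At these limits 4 and 2 of the other bHLH-PAS genes were detected rather than 3, and 46 and 41 of the HIF targets rather than 45. The count of neighbouring genes that differ beyond the spread was 4, but 3 with a pseudocount of 0.1, which lost Egln2 over Hif1an, and 6 with no filter, which added Arnt over Vhl and Epas1 over Arnt2. After rescaling by the median ratio of 0.973, 8 of the 10 genes rather than 9 were lower in replicate 2. No paired analysis was possible because the libraries form 1 group. With 2 libraries of unknown depth, the spread is itself poorly known, and steps near the limit depend on how it is set.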
